A study of Mus musculus with 2 samples.

Results

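The genes described here are 43 genes of microglia, of border macrophages and of the complement system. They were taken by symbol from a named list, out of 55536 annotated genes, and all 43 were found. Their RNA was measured by total RNA sequencing of whole left cerebral cortex from male mice of the strain B6CASTF1/J, a hybrid of C57BL/6J and CAST/EiJ, at an age of 14 days. There were 2 libraries in 1 group. The labels number them as biological replicates 1 and 2 with a biosample each, but list a single donor entry and mention 3 males without stating whether tissue was pooled. Each library was made from 300 ng of total RNA, with ERCC spike-ins of the mix used for stranded libraries with reduced ribosomal RNA. No treatment, genotype or age was compared, so no p-value is given, and the spread between the libraries may be technical. Values after ± are SDs (n = 2 libraries).

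Microglia are the resident macrophages of the brain parenchyma. Border macrophages live in the meninges, around vessels and in the choroid plexus. Both depend on the receptor CSF1R, and neurons and glia signal to them through secreted or membrane-bound ligands such as interleukin 34, CSF1, fractalkine and CD47. Complement is a cascade of secreted proteins that tags targets for uptake. In the young cortex it is known for marking synapses that microglia remove.

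Levels are given as TPM, a unit that divides estimated reads by transcript length and scales every library to a common sum. Of the 43 members, 38 (88.4%) reached TPM 1 in both libraries, against 58.7% of the nuclear protein-coding genes. The other 5 members, C5ar1, Gpnmb, C3ar1, C3 and Ms4a7, were below TPM 1 in both. The median member stood at 5.59 TPM in replicate 1 and 5.65 TPM in replicate 2. The median protein-coding gene stood at 3.74 and 3.65 TPM. Members ran from 0.09 to 314 TPM and from 3 to 19675 estimated counts, and 12 of them had under 100 counts in each library. The libraries held 28263225 and 30862813 gene counts. The cell of origin of a transcript cannot be read from such a tissue sample, and fewer cells of a type and less RNA per cell cannot be told apart.

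**Figure D1:**
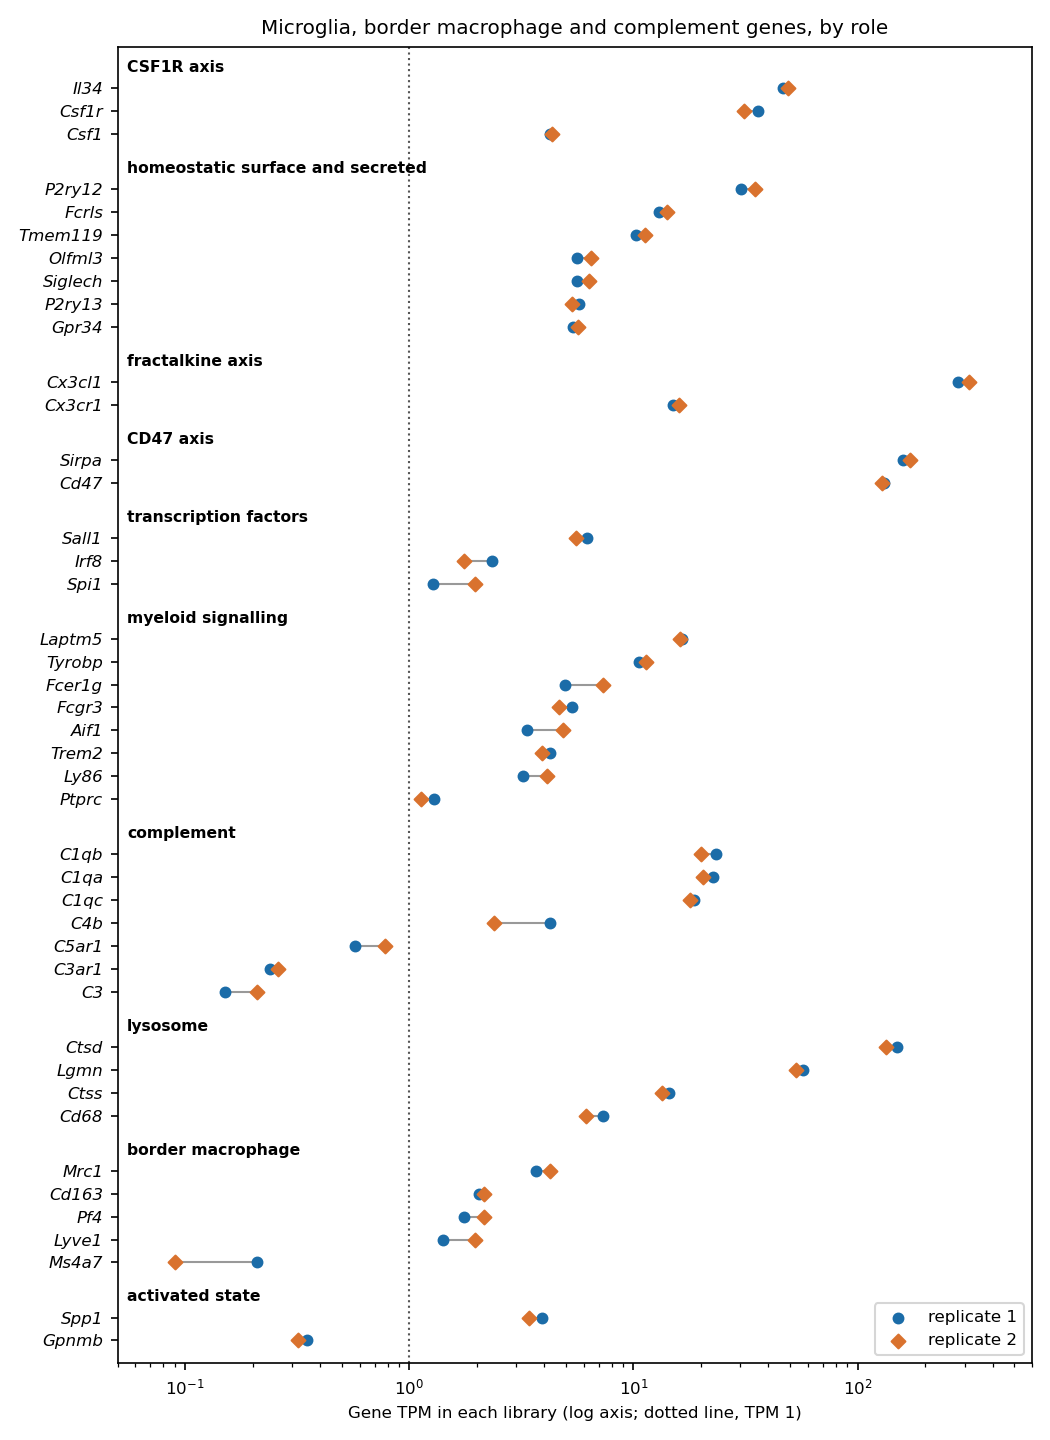
Gene TPM of the 43 members in replicate 1 (circles) and replicate 2 (diamonds) on a log axis, grouped by role, with a line joining the libraries and a dotted line at TPM 1. Cx3cl1, Sirpa, Ctsd and Cd47 stand above 128 TPM in both libraries, and 5 members lie left of the dotted line in both.

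The highest gene TPM of the CSF1R axis belonged to its neuronal ligand gene, and the highest counts to the receptor gene. Il34, which encodes interleukin 34, had 46.6 TPM in replicate 1 and 48.8 TPM in replicate 2. Of this, 21.4 and 22.4 TPM lay in Il34-205, a transcript with no coding sequence. The coding Il34-201 had 23.0 and 25.7 TPM. Csf1r, the gene of the receptor itself, had 36.1 and 31.2 TPM. Its leading transcript, the coding Csf1r-201, had 25.7 and 25.9 TPM. Csf1r had 2121 and 2301 counts, against 979 and 1119 for Il34. Csf1, the gene of the second ligand, had 4.23 and 4.31 TPM. Il34 exceeded Csf1 10.9-fold on the log2(TPM + 0.1) scale (mean log2 ratio 3.45 ± 0.03), and the libraries did not overlap. By counts scaled to library size and not divided by length, the mean log2 ratio was 1.93 ± 0.11. Csf1r exceeded Csf1 by a log2 ratio of 2.95 ± 0.16. Of the 5774 exonic bases of Csf1r, 873 lie opposite exons of Hmgxb3, which had 19.9 and 20.2 TPM. The use of strand in counting is not given in the sources used here. The reported spread of read assignment for Csf1r was 0 counts in both libraries. Whether reads over the shared bases came from Hmgxb3 was not tested.

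The homeostatic microglial genes, which mark the resting state of these cells, were all above TPM 5 in both libraries. P2ry12, a receptor for ADP that guides microglial processes, had 30.2 TPM in replicate 1 and 34.7 TPM in replicate 2, the highest of the 7. P2ry13, a related ADP receptor gene close to it on chromosome 3, had 5.74 and 5.30 TPM. P2ry12 exceeded P2ry13 5.79-fold (log2 ratio 2.53 ± 0.22). Both genes lie within Med12l on the opposite strand (17.0 and 14.7 TPM). P2ry12 shares 9 exonic bases with it and P2ry13 shares none.

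Fcrls, a scavenger-type relative of the Fc receptors, followed with 12.96 and 14.1 TPM. Tmem119, a membrane protein used to tell microglia from blood-derived macrophages, had 10.2 and 11.2 TPM. Olfml3, a secreted matrix protein, had 5.59 and 6.45 TPM. These 3 genes were each a little higher in replicate 2. Siglech, a sialic-acid-binding lectin, had 5.60 and 6.32 TPM. Gpr34, a receptor for lysophosphatidylserine, had 5.37 and 5.65 TPM. It lies inside Cask, which had 65.3 and 61.0 TPM on the opposite strand and shares no exonic base with it. The library ranges of Olfml3, Siglech, P2ry13 and Gpr34 overlapped along their order of level, so these neighbours were not separated.

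The highest level of all members belonged to the fractalkine ligand. Cx3cl1, which neurons display on their surface, had 281 TPM in replicate 1 and 314 TPM in replicate 2 (298 ± 22.9). Cx3cr1, its receptor on microglia, had 14.99 and 15.9 TPM. The ligand gene exceeded the receptor gene 19.1-fold (log2 ratio 4.26 ± 0.05). In the other ligand and receptor pair the levels were much closer. Cd47, a signal against engulfment found on most cells, had 131 and 128 TPM. Sirpa, its receptor gene, which neurons also express, had 159 and 171 TPM. The log2 ratio of Cd47 over Sirpa was -0.35 ± 0.10, with Sirpa higher in both libraries. Thus Cx3cl1, Cd47 and Sirpa, along with the lysosomal Ctsd, stood far above the microglial receptor genes.

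The transcription factor genes were low. Sall1, which maintains microglial identity, had 6.21 TPM in replicate 1 and 5.53 TPM in replicate 2. Irf8, an interferon regulatory factor of the myeloid lineage, had 2.33 and 1.76 TPM. Spi1, which encodes the lineage factor PU.1, had 1.27 and 1.97 TPM, from 42 and 48 counts. Spi1 and Irf8 could not be ordered by gene TPM, since the log2 ratio of Spi1 over Irf8 was -0.83 in replicate 1 and 0.15 in replicate 2. In replicate 2, Spi1-204, a transcript of 544 bases, held 0.79 TPM of Spi1 from 7.12 counts. Irf8 had more counts than Spi1 in both libraries (110 and 102). Its leading coding transcript, Irf8-201, had 1.57 and 1.45 TPM, against 1.10 and 0.99 TPM for Spi1-201.

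Among 8 genes of myeloid signalling, Laptm5, a lysosomal membrane protein of blood-lineage cells, was highest with 16.5 TPM in replicate 1 and 16.1 TPM in replicate 2. Tyrobp encodes the adaptor through which several myeloid receptors signal, and it had 10.6 and 11.3 TPM. Trem2, a lipid-sensing receptor that uses this adaptor, had 4.23 and 3.89 TPM. Tyrobp exceeded Trem2 by a log2 ratio of 1.41 ± 0.15 per length, although their counts were alike (97 and 108 for Tyrobp, 119 and 101 for Trem2). Fcer1g, a second adaptor, had 4.95 and 7.28 TPM. Fcgr3, a receptor for IgG, had 5.33 and 4.67 TPM. Aif1, the gene of the marker protein IBA1, had 3.34 and 4.84 TPM from 45 and 61 counts. Ly86, a partner of the receptor RP105, had 3.21 and 4.11 TPM. Ptprc, which encodes the leukocyte antigen CD45, was lowest with 1.29 and 1.13 TPM.

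The 3 chains of C1q, which start the classical complement pathway, were alike in level. C1qb had 23.3 TPM in replicate 1 and 19.99 TPM in replicate 2, C1qa had 22.6 and 20.4 TPM, and C1qc had 18.6 and 17.9 TPM. C1qa and C1qb were not separated (log2 ratio -0.01 ± 0.06). C1qc was 1.18-fold below C1qb in the first set of tables (log2 ratio of C1qc over C1qb -0.24 ± 0.12). In the second transcript table that ratio was -0.13 in replicate 1 and 0.00 in replicate 2. The genes lie together on the minus strand of chromosome 4 of mm10. C1qb spans 136880129 to 136886187, C1qc spans 136889804 to 136893065, and C1qa spans 136895917 to 136898803.

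RefSeq start windows on build GRCm38.p6 were held for 33 of the 43 members. No window was held for Csf1r, Il34, Gpr34, Tmem119, Sirpa, Spi1, Tyrobp, C1qa, C4b and Lyve1, so these were not searched. The motif AGGAAGT, a form of the ETS site that PU.1 and related factors are known to bind, was searched on both strands in the 250 bases before each start. It was present for 10 of the 33 members (30.3%), against 2377 of 27025 genes with a window (8.80%). The 10 are Ptprc, Mrc1, P2ry12, Fcrls, C1qb, C1qc, Pf4, Spp1, C5ar1 and Sall1. The palindrome CACGTG, an E-box, was present for P2ry12, Siglech, Ctsd and Lgmn, which is 12.1% of the 33 members against 6.86% of the genes. A match is a run of letters and no evidence of binding. Windows of C1qb, C1qc and the border macrophage gene Mrc1 are shown because they hold the motif, in capitals, in a pair of co-located genes of like level and in a gene of the other macrophage class. In all 3 it reads as ACTTCCT on the strand of the gene, 53 bases before the RefSeq start of C1qb, 195 before that of C1qc and 211 before that of Mrc1. Bases past the GENCODE M21 start of the gene were left off, 151 for C1qc and 22 for Mrc1. The windows are chr4:136886201-136886450 on the minus strand for C1qb, chr4:136893066-136893164 on the minus strand for C1qc and chr2:14229164-14229391 on the plus strand for Mrc1.
C1qb: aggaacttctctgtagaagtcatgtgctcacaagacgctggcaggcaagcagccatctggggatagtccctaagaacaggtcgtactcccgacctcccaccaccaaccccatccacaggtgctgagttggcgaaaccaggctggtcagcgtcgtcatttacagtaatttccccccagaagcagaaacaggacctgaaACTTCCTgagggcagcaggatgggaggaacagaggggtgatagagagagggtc
C1qc: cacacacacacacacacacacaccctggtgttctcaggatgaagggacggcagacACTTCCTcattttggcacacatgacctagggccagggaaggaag
Mrc1: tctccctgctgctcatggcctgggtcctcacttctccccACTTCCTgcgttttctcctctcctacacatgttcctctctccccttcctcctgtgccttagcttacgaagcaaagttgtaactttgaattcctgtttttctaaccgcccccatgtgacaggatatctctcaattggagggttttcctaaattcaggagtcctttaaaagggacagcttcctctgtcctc

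The other complement members were lower than C1q. C4b, which encodes the classical-pathway component C4, had 4.24 TPM in replicate 1 and 2.38 TPM in replicate 2. C3, the gene of the component on which all pathways converge, had 0.15 and 0.21 TPM from 14 and 20 counts. C4b over C3 had a log2 ratio of 3.56 ± 0.79, a wide spread. C5ar1, the receptor for the C5a fragment, had 0.57 and 0.78 TPM from 18 counts in each library. C3ar1, the receptor for C3a, had 0.24 and 0.26 TPM from 19 and 22 counts. C5ar1 was higher than C3ar1 per length in both libraries (log2 ratio of C3ar1 over C5ar1 -1.13 ± 0.22), while the order of their counts was the opposite. Much of the C5ar1 level came from C5ar1-203, a transcript of 674 bases, with 0.22 and 0.54 TPM from 2.44 and 6.28 counts. The longer C5ar1-201 had 0.34 and 0.24 TPM. The order of the 2 receptor genes is therefore not settled. C4b and C4a are near-identical copies, so the division of reads between them is uncertain. C4a was listed with 3.93 and 2.12 TPM.

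In a wider list of 46 complement genes, which includes the 7 members, 22 reached TPM 1 in both libraries and 20 were below it in both. Of the nuclear protein-coding genes, 58.7% reached TPM 1 in both libraries. The initiation step had 4 of 8 at that level, namely the C1q chains and Masp1, a lectin-pathway protease gene with 7.18 TPM in replicate 1 and 7.89 TPM in replicate 2. The step from C2 to C4 with the alternative pathway had 4 of 7. Among them were C2, with 2.66 and 1.30 TPM, and Cfp, the gene of properdin, with 4.01 and 6.62 TPM. None of the 7 terminal genes reached TPM 1 in both libraries. The highest of them, C8g, had 1.39 and 0.75 TPM, and C6 and C9 were listed at 0. The receptors had 2 of 7, which were Itgam (4.49 and 4.94 TPM) and Itgb2 (1.58 and 1.44 TPM). These encode the subunits of complement receptor CR3.

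The regulators held the highest complement levels, with 10 of 14 at TPM 1 in both libraries, against 58.7% of the nuclear protein-coding genes. Clu, a secreted chaperone that also binds the terminal complex, had 325 TPM in replicate 1 and 289 TPM in replicate 2. Vtn, the gene of vitronectin, had 44.4 and 47.7 TPM. Csmd1, a large membrane regulator expressed by neurons, had 44.3 and 48.7 TPM. Of 3 C1q-like synaptic ligand genes, C1ql3 was highest with 37.6 and 30.4 TPM. C1q and most regulators were thus detected in this tissue, while the terminal genes were near the floor. Counts over steps of so few genes are a description only.

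**Figure D2:**
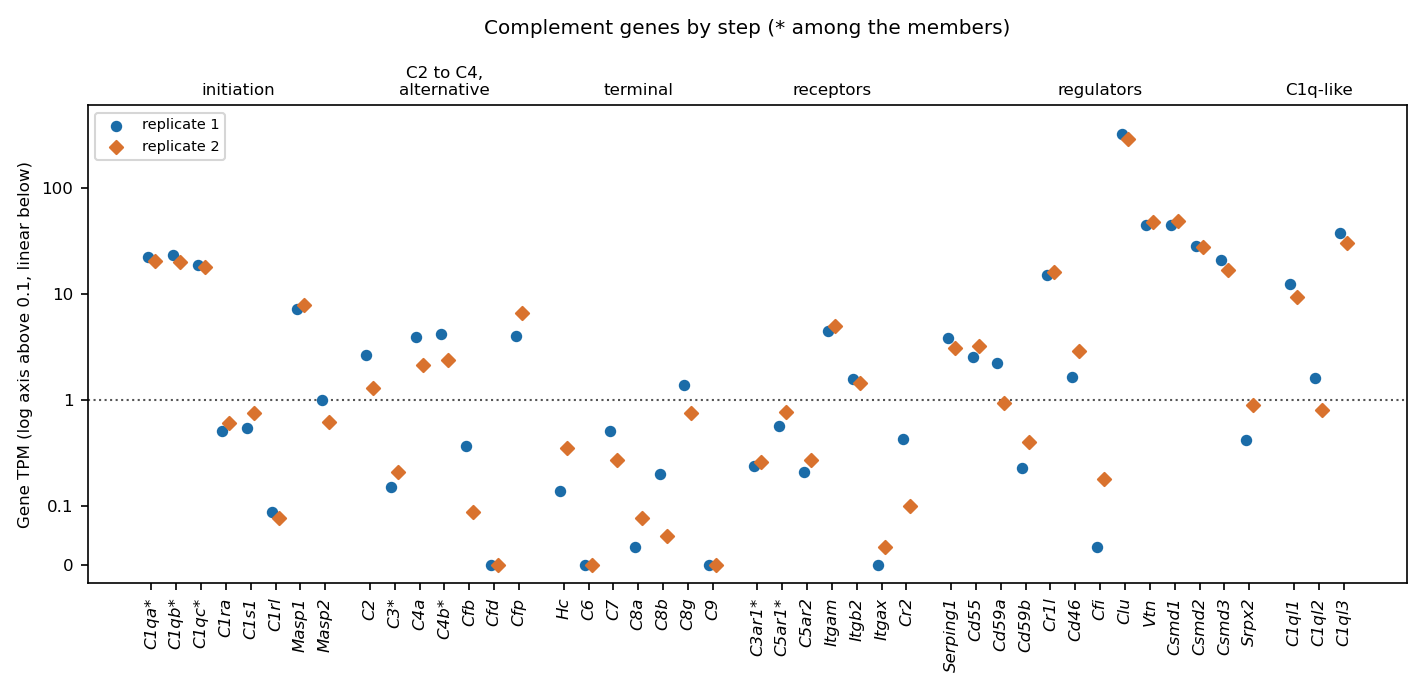
Gene TPM of the complement genes reported here by step, in replicate 1 (circles) and replicate 2 (diamonds), on an axis that is logarithmic above 0.1 and linear below, with a dotted line at TPM 1 and an asterisk on the 7 members. None of the 7 terminal genes is above the line in both libraries, while most regulators are, with Clu highest at 325 and 289 TPM.

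The 4 lysosomal genes were all above TPM 6 in both libraries. Ctsd, the aspartic protease cathepsin D, which most cells express, had 150.3 TPM in replicate 1 and 134 TPM in replicate 2. It shares 808 of its 2351 exonic bases with Gm49369 on the same strand, a gene listed with 1.08 and 3.22 TPM. The reported spread of read assignment for Ctsd was 15.5 and 29.5 counts, which is 0.27% and 0.55% of its counts. The division of reads between the 2 genes was not tested further. Lgmn, the asparaginyl protease legumain, had 57.0 and 53.1 TPM. Ctss, the cysteine protease cathepsin S of myeloid cells, had 14.4 and 13.5 TPM. Cd68, a lysosomal membrane glycoprotein of macrophages, had 7.33 and 6.15 TPM. Ctsd exceeded Ctss 10.1-fold (log2 ratio 3.34 ± 0.05), and Ctss exceeded Cd68 2.06-fold. All 4 had the larger TPM in replicate 1, and their median log2 CPM difference was 0.14.

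Border macrophage genes were low. Mrc1, the mannose receptor, had 3.67 TPM in replicate 1 and 4.26 TPM in replicate 2. Cd163, a scavenger receptor for haemoglobin bound to haptoglobin, had 2.04 and 2.15 TPM. Pf4, a chemokine gene, had 1.76 and 2.16 TPM, from as few as 9 and 17 counts. Lyve1, a hyaluronan receptor, had 1.41 and 1.96 TPM. Ms4a7, a membrane protein of macrophages other than microglia, had 0.21 and 0.09 TPM from 6 and 3 counts. The 5 genes summed to 9.09 and 10.6 TPM, against 75.7 and 83.8 TPM for the 7 homeostatic microglial genes.

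Set against single microglial genes, Mrc1 was 8.02-fold below P2ry12 (log2 ratio -3.00 ± 0.01), and the ratio was nearly the same in both libraries. Lyve1 was 2.30-fold below Mrc1 (log2 ratio -1.20 ± 0.17). Ms4a7 was below Tmem119 by a log2 ratio of -5.48 ± 0.59, but its few counts leave that size uncertain. Of 11 further border macrophage genes, 4 reached TPM 1 in both libraries, against 58.7% of the nuclear protein-coding genes. The highest were Stab1, a scavenger receptor also made by some endothelial cells, with 13.5 and 14.3 TPM, and F13a1, the coagulation factor XIII subunit gene, with 2.50 and 2.24 TPM.

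Most markers of blood leukocytes, which share genes such as Ptprc and Tyrobp with microglia, were near the floor. The part of leukocytes in the levels of the shared genes was not tested. Of 24 marker genes of monocytes, neutrophils, T and NK cells, B cells and dendritic cells, 1 reached TPM 1 in both libraries and 5 were listed at 0 in both. The exception was Flt3, a dendritic cell marker, with 1.94 TPM in replicate 1 and 2.01 TPM in replicate 2. The 24 genes summed to 4.50 and 4.49 TPM. By contrast, all 9 microglia markers reached TPM 1 in both libraries, with a sum of 172.1 and 172.0 TPM. These do not include Vcan, a marker of monocytes that other brain cells also make, with 12.7 and 9.65 TPM. With Vcan the sums are 17.1 and 14.1 TPM. All 4 markers each of neurons, astrocytes, oligodendrocytes, endothelial cells, mural cells, meningeal fibroblasts and erythroid cells also reached TPM 1 in both libraries. Of the nuclear protein-coding genes, 58.7% did so.

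Of the 2 members that mark activated microglia, Spp1, the gene of osteopontin, had 3.91 TPM in replicate 1 and 3.42 TPM in replicate 2. Gpnmb, a membrane glycoprotein of lipid-laden macrophages, had 0.35 and 0.32 TPM from 20 and 17 counts. Gpnmb was 8.64-fold below Spp1 (log2 ratio -3.11 ± 0.06), and Spp1 was 8.96-fold below Csf1r (log2 ratio -3.16 ± 0.01).

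**Figure D3:**
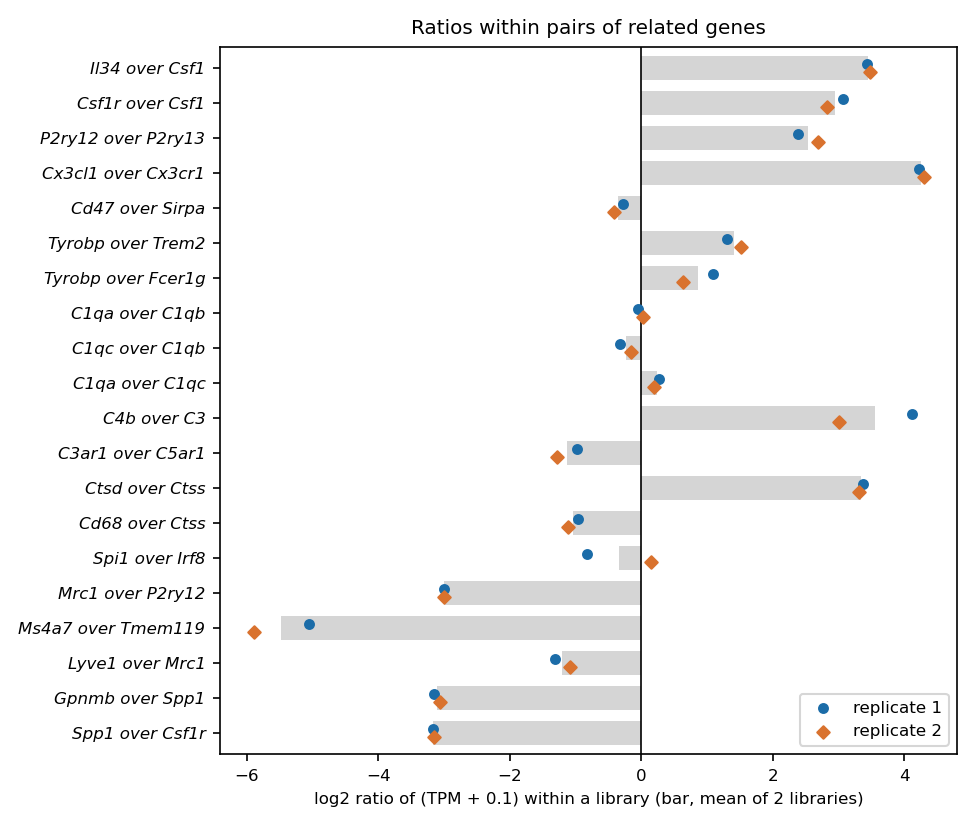
Log2 ratio of TPM + 0.1 within each library for 20 pairs of related genes, with circles for replicate 1, diamonds for replicate 2 and bars for the mean. The first gene was higher in 9 pairs, the second in 9, and 2 pairs (C1qa over C1qb and Spi1 over Irf8) have the libraries on opposite sides of 0.

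Across all members ordered by mean TPM, 20 of the 42 neighbouring pairs had library ranges that did not overlap and 22 did not separate. The steps at the top, through Cx3cl1, Sirpa, Ctsd, Cd47, Lgmn, Il34 and Csf1r, were all separated. Csf1r and P2ry12 were not. From Cd68 down to Gpr34, 7 genes followed each other between 6.74 and 5.51 TPM without any separated neighbours. The coefficient of variation between the libraries had a median of 8.19% over all 43 members, and 6.04% over protein-coding genes at TPM 1 or above. The members include 5 below TPM 1, so the 2 medians are not on like sets.

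Most members were assigned largely to 1 annotated transcript. Of 34 members with at least 2 transcripts and TPM 1 in both libraries, 26 had a transcript with a share above 50% of gene TPM in each library, and for 11 it took over 75%. The same counts over all genes are not given here, so these do not set the members apart from other genes. Cx3cl1-201 took 95.1% in replicate 1 and 95.7% in replicate 2, though the second transcript table gave it 72.2% and 75.2%. Mrc1-201 took 97.6% and 97.1%. The leading transcript was protein-coding for 32 of the 34. The top transcript was the same in both libraries for 30, and the same in both transcript tables for 24.

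Il34, Cd47 and Csf1 were divided between transcripts, unlike Cx3cl1. Il34-201, which codes for the protein, took 49.4% of the gene's TPM in replicate 1 and 52.7% in replicate 2. Il34-205, a processed transcript of 675 bases with no coding sequence, took 45.9% and 45.8%. Because it is shorter, it held 23.9% and 23.4% of the gene's counts. Cd47 was split between Cd47-201, with 54.2% and 55.9%, and Cd47-205, with 45.0% and 43.5%, both protein-coding. Their coding sequences are 972 and 963 bases long, and the shorter transcript took 16.3% and 15.5% of the counts. Csf1-201, with 1656 coding bases, took 61.1% and 57.6%. Csf1-202, with 771 coding bases, took 19.0% and 15.4% in the first table, but 0% and 4.71% in the second.

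Olfml3 stood apart, since its leading transcript was not a coding one. Olfml3-202, annotated as a retained intron of 3981 bases, took 83.6% of the gene's TPM in replicate 1 and 81.0% in replicate 2. The second table also put it first, with 89.3% and 88.4%. Pf4-202, likewise a retained intron, took 83.5% and 44.3% of Pf4, and the coding Pf4-201 took 0% and 55.7%. The second table gave all of Pf4 to Pf4-201. Trem2-201, coding, took 78.0% and 67.3% of Trem2. Trem2-203, a retained intron of 4784 bases, took 13.4% and 8.10% of the TPM and 42.4% and 29.6% of the counts.

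The leading transcript differed between the libraries for Ptprc, Aif1, Pf4 and Spp1, all with at most 105 counts. Ptprc-203 took 52.5% of Ptprc in replicate 1 and 0% in replicate 2, where Ptprc-204 took 43.2%. Spp1-202 took 67.8% and 30.4% of Spp1, while Spp1-201 took 7.23% and 69.6%. At such depth a switch of form between the libraries cannot be read from these values.

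**Figure D4:**
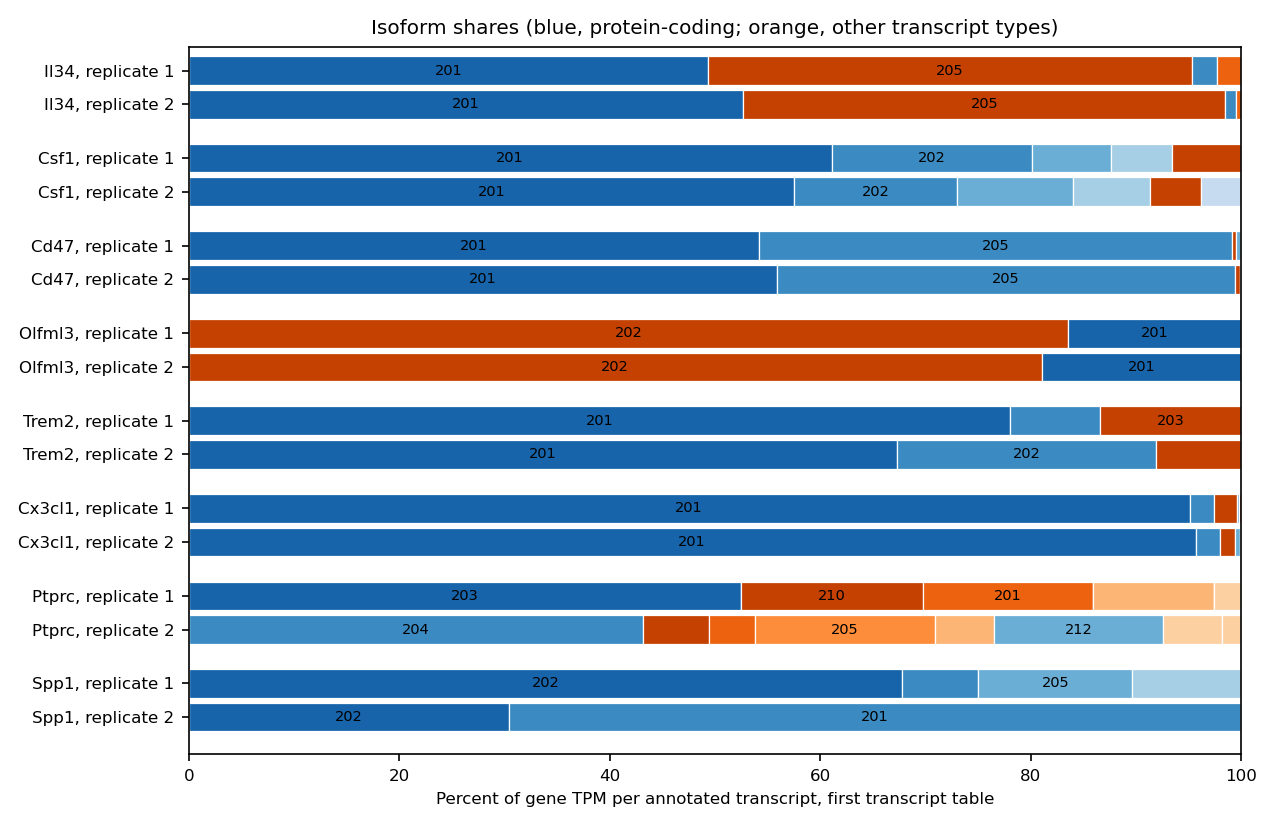
Percent of gene TPM by annotated transcript for 8 members, replicate 1 above replicate 2, with protein-coding transcripts in blue shades, other types in orange shades and transcript numbers on the wider segments. Il34, Cd47, Olfml3 and Cx3cl1 have like bars in the 2 libraries, whereas Ptprc and Spp1 change their leading transcript.

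The libraries were also compared by counts, as log2 CPM (read counts scaled by library size) of replicate 1 minus replicate 2 after scaling by edgeR's TMM factors. Of the members, 42 had at least 10 counts in a library. Ms4a7 did not. The median difference over them was -0.02, against 0.00 over 18965 genes, and the median size regardless of sign was 0.14 for both. Of the 42, 20 were higher in replicate 1, against 50.1% of all genes measured. A difference past 1.5-fold was seen for 3 of the 42, against 11.0% of all genes measured. The 95% interval of counting error excluded 0 for 13 of the 42, which is 31.0% against 28.5% of all genes measured. In the second transcript table it excluded 0 for 7 of 43 members, which is 16.3% against 27.0% of the genes measured there. The members' count relative to other genes therefore depended on the table.

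Ptprc was the most different member with a log2 difference of 0.79 (95% counting interval 0.35 to 1.28), from 105 counts in replicate 1 and 64 in replicate 2. Its TPM differed less. The short transcripts Ptprc-205 and Ptprc-212, of 364 and 415 bases, took 0% of it in replicate 1 and 17.1% and 16.1% in replicate 2. These shares in replicate 2 came from 1.04 and 1.17 counts. The closer TPM values of Ptprc are therefore no sign that the libraries agree. Pf4 came next in size with -0.70, but its interval of -2.17 to 0.43 includes 0. C4b had 0.66 (0.40 to 0.93), from 292 and 197 counts. Smaller differences beyond counting error were positive for Cd68 (0.40), C1qb (0.22), Ctsd (0.18), Sall1 (0.17) and Lgmn (0.10). They were negative for Fcer1g (-0.54), P2ry12 (-0.22), Olfml3 (-0.22), Mrc1 (-0.20), Cx3cl1 (-0.16) and Sirpa (-0.09).

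By group, 6 of the 7 homeostatic microglial genes had a negative difference, with P2ry13 the exception (median log2 difference -0.13). Only P2ry12 and Olfml3 of the 7 were beyond counting error. All 4 lysosomal genes had a positive difference, and Ctss was the 1 of them within counting error. Of all genes measured, 50.1% had a positive difference and 28.5% were beyond counting error. Groups of so few genes give no more than a description. Markers of other cells moved between these libraries as well. All 4 oligodendrocyte markers were higher in replicate 1, with summed levels of 879 TPM in replicate 1 and 570.2 TPM in replicate 2. All 4 erythroid markers were lower in replicate 1, with sums of 782 and 1203 TPM. The part of these shifts in the members' differences was not tested. For Csf1r, Csf1, Laptm5, C5ar1 and Cd163, TPM and CPM put the libraries in opposite order, so no direction is given for them.

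**Figure D5:**
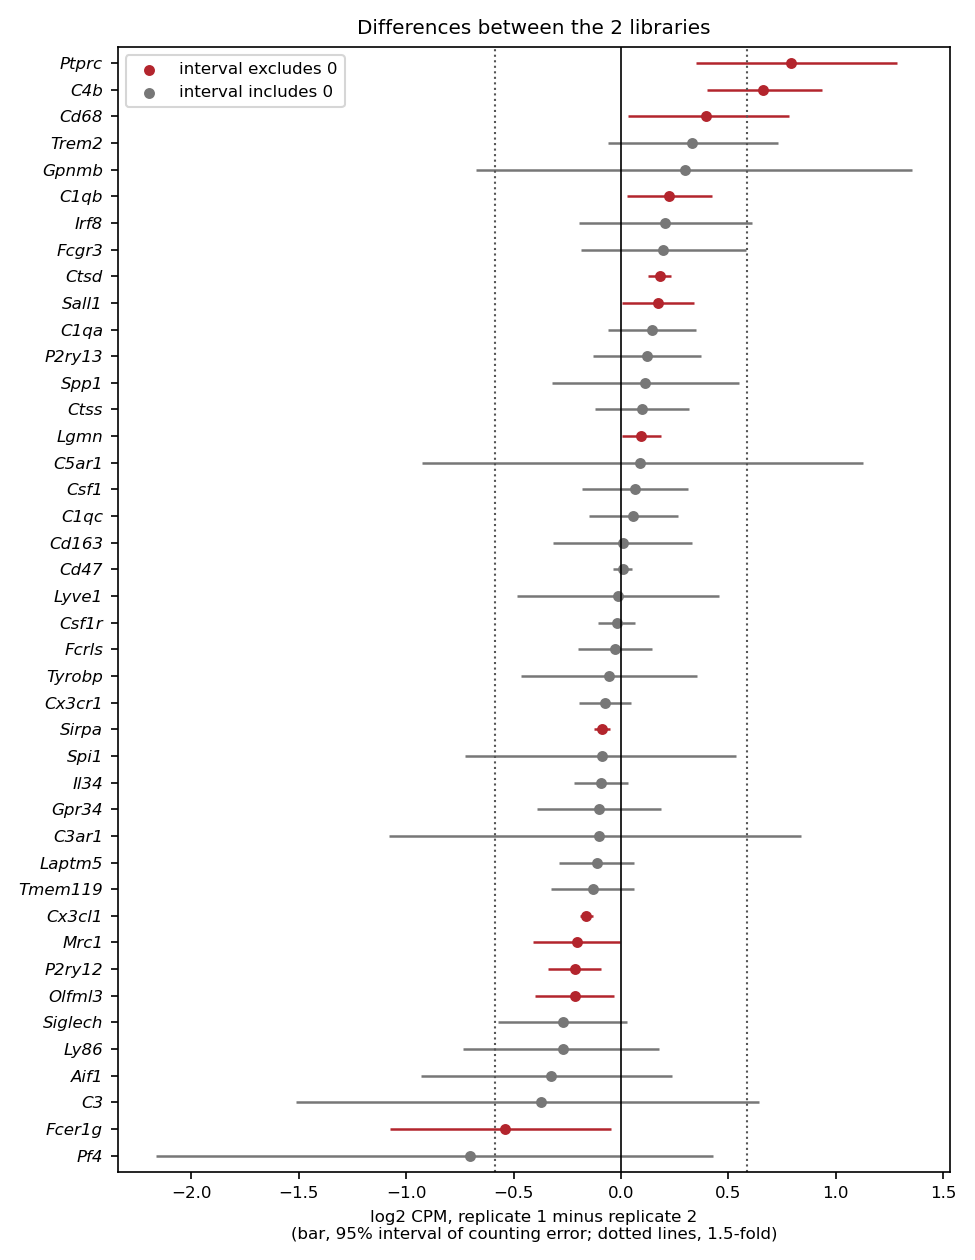
Log2 CPM of replicate 1 minus replicate 2 for the 42 members with enough counts, with bars for the 95% interval of counting error, red where it excludes 0, and dotted lines at 1.5-fold. Ptprc and C4b lie past the dotted line with intervals above 0, and most members lie near 0.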

How the data were processed

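Total RNA of 2 cortex libraries was analysed from a gene table and 2 transcript tables per library on mm10 with GENCODE M21. Per the file headers, the authors' gene table and first transcript table hold expected counts (estimated reads, not normalized), TPM and the percent of each gene's abundance by transcript. The column names are those RSEM writes. The second deposited transcript table holds estimated counts and TPM under the column names kallisto writes, and was summed per gene. For aligner, quantifiers, versions and use of strand nothing is given in the sources used here. Left out were 97 spike-in entries and 26248 entries whose only name is a number, with 1 and 6 counts in all. The files' gene totals were 28377847 and 30982776 counts with these entries.

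Members were matched by symbol. Members, lists and complement steps were chosen with earlier results of these data known. All members are named. From the other lists the 3 highest by mean TPM were to be named, apart from genes counted in the lists but not reported singly here, and further complement, macrophage and leukocyte genes were named after their values were seen. Pair ratios used log2(TPM + 0.1). A pair was called separated where both libraries agreed in sign and the mean exceeded the SD. Library differences used expected counts rounded to whole numbers, genes with at least 10 counts in a library, TMM factors and a prior count of 2 (edgeR 4.0.16, R 4.3.3), with exact 95% Clopper-Pearson intervals, which cover counting error only. Poisson error limits the 12 members under 100 counts most. The procedure was tested on simulated data. Alternatives used DESeq2 1.42.0 size factors and other settings. Tables were joined in Python 3.11.15 with pandas 2.3.3, numpy 2.4.6 and scipy 1.17.1, and drawn with matplotlib 3.10.9. The spread of read assignment that the authors' tables report was 0 for 40 of the 43 members in both libraries, the exceptions being Fcgr3, C4b and Ctsd. Promoter windows are RefSeq's. Whether reads of CAST alleles matched the reference as well as those of C57BL/6J alleles was not tested.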

Additional observations from a re-analysis of the deposited data

How the results depend on the processing

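Of 40 values of the main results under other settings, 30 kept their size and 10 moved. A minimum of 5 TPM left 23 members above it in both libraries. The median member stood at 8.39 TPM in the second transcript table and at 12.04 TPM when TPM was rescaled over protein-coding genes alone. The median library difference of the members was 0.012 by library size alone, -0.048 by spike-in counts, 0.017 for the 31 members with at least 100 counts and 0.016 in the second table, so its sign is not settled. By estimated counts of the second table, members beyond counting error numbered 7 (16.3%, against 27.0% of genes). A fold of 2 was passed by 0 members, and 11 members had a transcript over 75%. Shares of all genes at these limits are not given here, so neither count sets the members apart. Leaving out replicate 1 or replicate 2 gave 38 members at TPM 1 each time, medians of 5.65 and 5.59 TPM, and 31 and 30 members with a transcript over 50%. Pair separation needs both libraries and was not recomputed without one. By CPM not divided by length, Tyrobp over Trem2 had a log2 ratio of -0.10 and C3ar1 over C5ar1 of 0.16, both opposite in sign to the ratio by TPM. These genes differ in length, by which the counts were not divided. Over pairs, genes and transcripts, 396 other values kept their size, 153 moved and 2 reversed. No paired analysis was possible because both libraries belong to 1 group. The second table gave members a median 1.54 times the TPM of the first, with the ratio from 1.11 to 4.91. Depth limits C3, C3ar1, C5ar1, Gpnmb, Pf4 and Ms4a7, each with at most 22 counts in a library.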

Other observations

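The counts at TPM 1 in this section stand beside 58.7% of the nuclear protein-coding genes. All 11 genes of the TGF-beta axis, a pathway on which microglia depend, reached TPM 1 in both libraries. The highest were Itgav, an integrin subunit, with 40.1 TPM in replicate 1 and 47.7 TPM in replicate 2, Smad4 with 23.2 and 22.7 TPM, and Smad2 with 17.3 and 18.5 TPM, all widely expressed. Of 49 further microglial genes, 42 reached TPM 1 in both libraries. Bin1, a membrane-bending protein also made by neurons and oligodendrocytes, had 100.7 and 104.9 TPM, and Gas6, a ligand for receptors of the TAM family, had 50.3 and 52.6 TPM.

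Of 15 further transcription factor genes of microglia, 12 reached TPM 1 in both libraries. Mef2c had 313 TPM in replicate 1 and 472 TPM in replicate 2, and cortical neurons also express it. Mef2a had 55.5 and 56.1 TPM and Nr4a1, an activity-induced gene, had 22.1 and 35.7 TPM. Of 22 genes reported in activated microglia, 15 reached TPM 1 in both libraries. They were led by genes that other brain cells express as well, Apoe with 875 and 853 TPM, Fth1 with 796 and 804 TPM, and Ctsb with 179 and 182 TPM. Lyz2, the lysozyme of myeloid cells, had 3.58 and 3.29 TPM, and Cd74, the invariant chain of antigen presentation, had 2.14 and 2.13 TPM. The 7 genes below TPM 1 in both libraries were Cst7, Itgax, Clec7a, Ccl3, Ccl4, Ccl6 and Lgals3, of which Ccl6 (0.48 and 0.96 TPM) and Lgals3 (0.35 and 0.34 TPM) were highest.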
